A study of Mus musculus with 10 samples.

Results

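The 10 genes described here encode phosphodiesterases that break down cyclic AMP (cAMP) in mouse brown adipose tissue (BAT), namely Pde1a, Pde3a, Pde3b, Pde4a, Pde4b, Pde4d, Pde7a, Pde8a, Pde8b and Pde10a. They were taken by symbol from the gene table of the series, and all 10 were among the 13568 genes tested, out of 24454 genes in the files. BAT of 5 control and 5 Stat5Adipoq male mice on a C57BL/6N background, 2 months old and fed ad libitum, was profiled by RNA-Seq with 1 library per mouse. Stat5Adipoq mice carried floxed Stat5a and Stat5b alleles and Adipoq-Cre, a Cre recombinase driven by the promoter of the adipocyte gene adiponectin, so that the deletion was restricted to adipocytes. The controls carried the same floxed alleles without Cre according to the methods of the study, although their labels call them wild type. The sample names call the state of all 10 mice basal.

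Noradrenaline released by sympathetic nerves acts on β-adrenergic receptors of brown adipocytes, which raise cAMP through adenylyl cyclase and so switch on protein kinase A (PKA), lipolysis and heat production. Phosphodiesterases hydrolyse cAMP and end this signal. They differ in their affinity for cAMP, in whether they also cleave cyclic GMP (cGMP), in their regulation by calcium, cGMP, insulin or PKA, and in the place in the cell where they are held. The question asked here is whether the mRNA of this arm of the pathway differed between the genotypes, per gene and in whole tissue.

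The counts on genes were 8488129 to 19514904 per control library and 9401827 to 15686868 per Stat5Adipoq library. Stat5a was 86.9 CPM or more in every control and 20.7 CPM or less in every Stat5Adipoq library, and Stat5b was 76.6 CPM or more and 22.9 CPM or less, where CPM is the count of a gene per 1e6 counts of its library, after TMM scaling for library composition. Brown adipocyte markers were abundant in all libraries, with a summed level over 10 markers of 21000 to 31300 CPM in control and 22500 to 28100 CPM in Stat5Adipoq BAT. Control replicate 3 stood apart in its skeletal muscle markers, whose sum over 10 markers reached 3820 CPM, where the remaining controls had 4.70 to 309 CPM and at most 44 CPM in Stat5Adipoq BAT. It was also highest in liver markers, whose sum over 10 genes was 281 CPM. The sum was 60.6 to 190 CPM in the remaining controls and 30.5 to 84.8 CPM in Stat5Adipoq BAT. Cyp2e1 of this list alone was 58.7 to 188 CPM over the controls. Alb, by contrast, had a control median of 0.365 CPM and a control maximum of 38.7 CPM. Of the marker lists for endothelium, fibroblasts, smooth muscle and pericytes, macrophages, lymphocytes and Schwann cells, 1 gene was called higher in Stat5Adipoq BAT, S100b of the Schwann cell list, with a log2 fold change of 1.07 (edgeR adjusted p = 8.5e-04). Of the skeletal muscle and liver lists 1 gene was called lower by edgeR, Cyp2e1 of the liver list, with -1.67 (edgeR adjusted p = 0.037). Adipocytes are known to express both S100b and Cyp2e1 as well. All 10 skeletal muscle markers had a log2 fold change below 0, with a median of -5.56 and an unadjusted edgeR p below 0.05 each. With DESeq2, 4 skeletal muscle markers and 1 liver marker, Cyp2e1, passed an adjusted p of 0.05. The 9 tested liver markers were also all below 0, with a median of -3.04. Libraries of the genotypes overlapped for every tested marker of both lists. The part of these cells in the results was not tested, and values without this library are given for the genes whose fold change it moved by over 0.05 on the log2 scale. In whole tissue, fewer cells of a type and less RNA per cell cannot be told apart.

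Of the 10 phosphodiesterase genes none differed between the genotypes past an adjusted p of 0.05 in edgeR's quasi-likelihood fit over all genes, adjusted after Benjamini and Hochberg (called edgeR adjusted p from here on), where 2.71% of all tested genes did, 1.31% lower and 1.4% higher in Stat5Adipoq BAT. At an unadjusted p below 0.05 there were 2 of the 10, Pde3b with a lower and Pde4a with a higher mean in Stat5Adipoq BAT, where 15.2% of all tested genes were below that value, 8.03% with a lower and 7.18% with a higher mean. DESeq2's Wald test called none of the 10 either, with 4.86% of all tested genes called, 2.46% lower and 2.4% higher. The libraries of the genotypes overlapped for all 10 genes. Over all tested genes 4.39% did not overlap, 2.04% lower and 2.35% higher in Stat5Adipoq BAT. For a set of 10 genes these counts are near the shares over all tested genes, and they do not set the 10 genes apart. The log2 fold change (Stat5Adipoq minus control) was below 0 for 9 of the 10, with a median of -0.09 and a range of -0.28 to 0.17. Over all tested genes it was below 0 for 50.8% and above 0 for 49.2%, with a median of 0.00. The 10 genes were measured in the same libraries, so their directions are not independent of each other. The 95% confidence limits of all 10 lay between a fold of 0.62 and a fold of 1.25, and those of 8 genes included no difference. The plot of differences shows these limits beside those of the phosphodiesterases that are not among the 10.

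**Figure D1:**
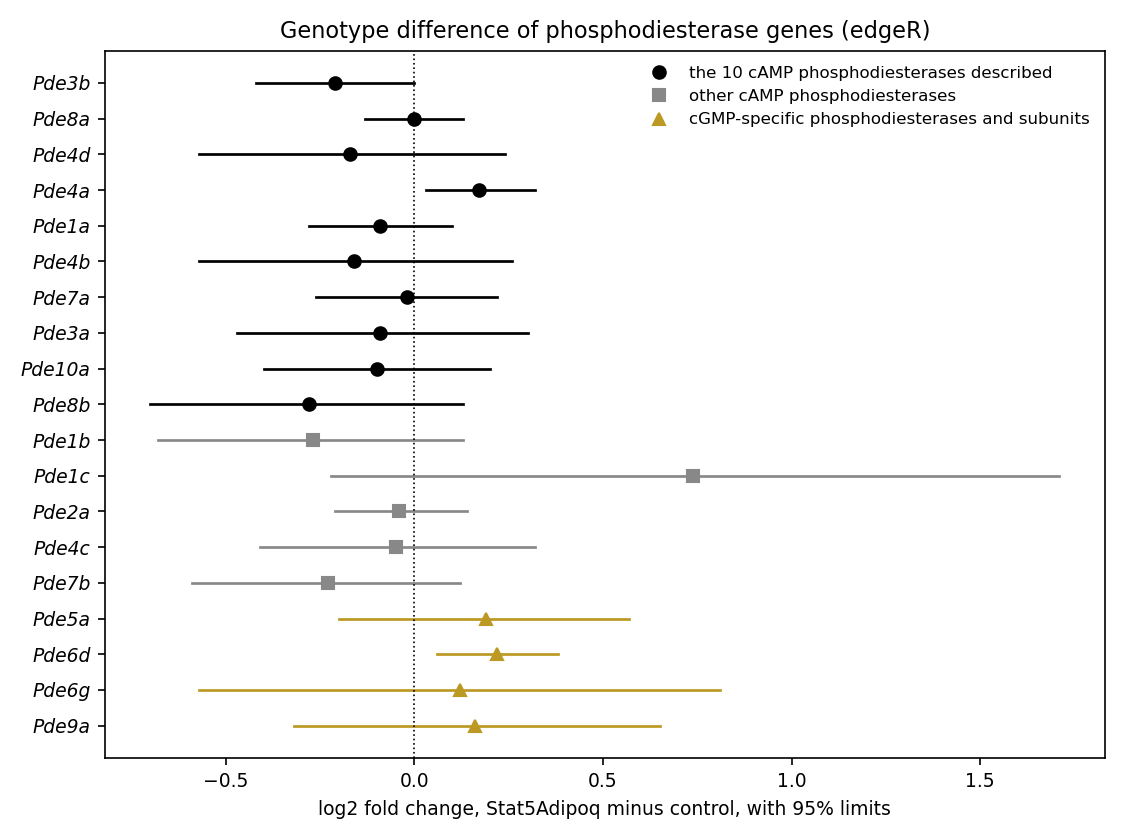
Log2 fold change of each phosphodiesterase gene (horizontal axis, Stat5Adipoq minus control, 5 libraries per genotype) with 95% confidence limits from edgeR's quasi-likelihood test. Circles are the 10 cAMP phosphodiesterases described, squares the other cAMP phosphodiesterases and triangles the cGMP-specific enzymes and subunits. The limits of Pde4a lie above 0, those of Pde3b end at 0, and those of the other 8 circles include 0.

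Levels of different genes were compared per kilobase of annotated exon, as RPKM. In control BAT Pde3b was the highest of the 10, at 44.9 ± 6.04 RPKM (SD, n = 5), and its lowest control library lay above the highest of Pde8a, the next gene. Pde8a followed at 24.6 ± 1.66 RPKM, Pde4d at 24.2 ± 6.27 RPKM and Pde4a at 17.8 ± 1.51 RPKM. Pde8a and Pde4d did not differ beyond their spread, with Pde8a the higher in 3 of 5 control libraries, and the ranges of Pde4d and Pde4a overlapped although Pde4d was the higher in 5 of 5. Pde1a was separated from both neighbours at 6.02 ± 0.442 RPKM. Pde4b (1.66 ± 0.383 RPKM), Pde7a (1.48 ± 0.206 RPKM) and Pde3a (1.26 ± 0.364 RPKM) formed a group with overlapping ranges, and so did Pde10a (0.535 ± 0.0592 RPKM) and Pde8b (0.438 ± 0.0886 RPKM), the lowest. The order of the genotype means in Stat5Adipoq BAT was the same, from Pde3b at 38.8 ± 3.91 RPKM to Pde8b at 0.358 ± 0.0639 RPKM.

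The order of the leading genes depended on the length used, because many transcripts of different length are annotated for these genes and reads were counted per gene. With the longest transcript in place of all exons, Pde4d ranked first at 69.1 RPKM in control BAT, Pde3b second at 62.3 RPKM, Pde4a next at 29.2 RPKM and Pde8a after it at 26.2 RPKM, while ranks 5 to 10 were as before. By all exons Pde3b, Pde8a, Pde4d and Pde4a together made up 89.1% to 92.0% of the summed RPKM of the 10 genes in control libraries and 89.7% to 91.5% in Stat5Adipoq libraries. The summed level of the 10 genes was 123 ± 12.6 RPKM (SD, n = 5) in control, from 110 to 139 RPKM, and 116 ± 6.57 RPKM (SD, n = 5) in Stat5Adipoq BAT, from 107 to 121 RPKM, so that the genotypes overlapped.

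**Figure D2:**
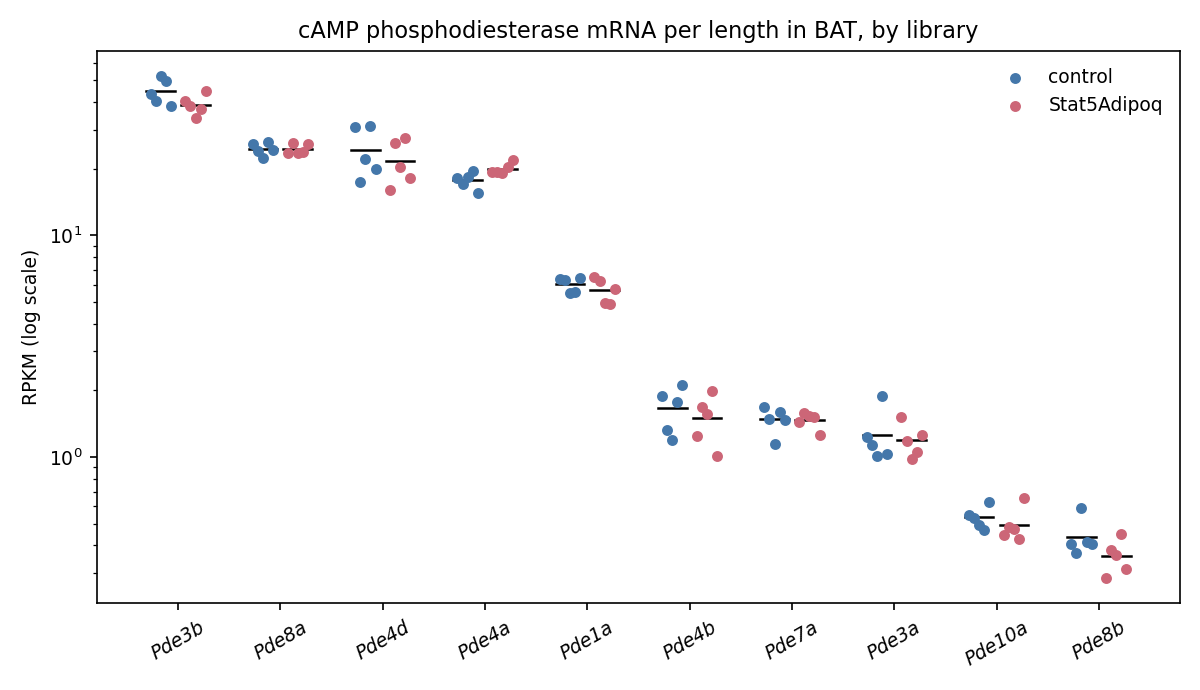
RPKM of the 10 cAMP phosphodiesterase genes (vertical axis, log scale) in each of 5 control (blue) and 5 Stat5Adipoq (red) libraries, with black lines at the means. Pde3b, Pde8a, Pde4d and Pde4a lie well above the other 6 genes, and blue and red points overlap for every gene.

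PDE3 enzymes hydrolyse cAMP and are inhibited by cGMP. PDE3B is the form through which insulin lowers cAMP and restrains lipolysis in adipocytes, whereas PDE3A is best known from heart, vascular smooth muscle and platelets. Pde3b lies on chromosome 7 from 114415222 to 114537938 on the plus strand of GRCm38. Its level in control replicates 1 to 5 was 396, 367, 478, 454 and 350 CPM. In Stat5Adipoq replicates 1 to 5 it was 366, 348, 310, 340 and 406 CPM. Control replicates 3 and 4 were above all other libraries, while the remaining controls lay among the Stat5Adipoq libraries, of which replicate 5 was higher than 3 controls. The means were 409 ± 55.1 CPM and 354 ± 35.6 CPM (SD, n = 5). The log2 fold change was thus -0.21, its 95% limits -0.42 and 0.00, and the fold 0.86. It was past an unadjusted threshold only narrowly (p = 0.0499) and not after adjustment (edgeR adjusted p = 0.33), and an exact two-sided permutation test gave p = 0.095, where the smallest p that 5 against 5 libraries allow is 0.0079.

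Within the controls, the order of the libraries in Pde3b was the order of their summed brown adipocyte markers, which were 24400, 23000, 31300, 28000 and 21000 CPM in control replicates 1 to 5. In Stat5Adipoq replicates 1 to 5 the sums were 24200, 22500, 27400, 27800 and 28100 CPM, and the order was not shared, with the lowest Pde3b in replicate 3. Ucp1 had the widest control range in CPM of the markers in this sum, 5400 to 13800 CPM, with Fabp4 next at 7870 to 9640 CPM. Plin1 was 1180 to 1280 CPM and Lipe 1610 to 1820 CPM over the controls. The order of the sums is therefore weighted to Ucp1, which is also among the cAMP-responsive transcripts below, and is not a measure of adipocyte content alone. The part of the marker differences in the level of Pde3b was not tested. Control replicate 3 was the library highest in Pde3b and in the skeletal muscle and liver marker sums. Without it the log2 fold change of Pde3b was -0.15 (edgeR adjusted p = 0.47), and without control replicate 4 it was -0.17.

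Pde3a lies on chromosome 6 from 141249269 to 141506862 on the plus strand, and 5.82% of its exon bases overlap exons annotated on the other strand. It was 15.7, 14.5, 12.9, 24.1 and 13.2 CPM in control replicates 1 to 5 and 19.4, 15.1, 12.6, 13.3 and 16.1 CPM in Stat5Adipoq replicates 1 to 5. Control replicate 4 was the highest library and the other controls lay within the range of the Stat5Adipoq libraries. Its log2 fold change was -0.09 (limits -0.47 and 0.30, edgeR adjusted p = 0.88), and it was 0.12 without control replicate 4, whereas leaving out control replicate 3 gave -0.16. Control replicate 4 was also the highest control in the summed fibroblast markers (2260 CPM, with 1250 to 1790 CPM in the remaining controls), Schwann cell markers (607 CPM, with 183 to 392 CPM) and macrophage markers (215 CPM, with 159 to 174 CPM). Stat5Adipoq replicate 1, the next highest in Pde3a, was the highest of its genotype in fibroblast markers (2190 CPM) and Schwann cell markers (371 CPM). Smooth muscle and pericyte markers were lowest among the controls in replicate 4, with a summed level over 10 genes of 705 CPM there and 731 to 754 CPM in the remaining controls. The part of these cells in the level of Pde3a was not tested.

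PDE4 enzymes are specific for cAMP and are the targets of the inhibitor rolipram. Their long forms are phosphorylated by PKA, which raises their activity, and β-arrestins and anchoring proteins bring them to receptors and to PKA. The counts per gene do not tell long forms from short forms. Pde4a lies on chromosome 9 from 21165700 to 21213248 on the plus strand, and was 139, 131, 141, 150 and 119 CPM in control replicates 1 to 5. In Stat5Adipoq replicates 1 to 5 it was 148, 149, 147, 156 and 167 CPM. All 5 Stat5Adipoq libraries were above the control median of 139 CPM, and 3 of them were below control replicate 4, so the genotypes overlapped by that library. The means were 136 ± 11.6 CPM and 153 ± 8.21 CPM (SD, n = 5). The log2 fold change was thus 0.17, its limits 0.03 and 0.32, and the fold 1.13. The unadjusted p was 0.0233 and the adjusted p 0.23 by edgeR's quasi-likelihood test, and an exact two-sided permutation test gave p = 0.032. Without control replicate 4 the log2 fold change was 0.21 and the adjusted p 0.15, the lowest in the alternatives tried for this gene.

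Because Pde3b and Pde4a were the 2 genes with an unadjusted p below 0.05 and differed in direction, their ratio per length was taken in each library, a choice made after their values were seen and so given without a test. This ratio does not depend on scaling between libraries. Pde4a divided by Pde3b was 0.416, 0.425, 0.351, 0.393 and 0.405 in control replicates 1 to 5. It was 0.483, 0.509, 0.565, 0.545 and 0.489 in Stat5Adipoq replicates 1 to 5, so that every Stat5Adipoq library was above every control. Among the 45 ratios that the 10 genes allow, this was the 1 ratio whose libraries did not overlap. Of the ratios of Pde3b to each of 13567 other tested genes, 4.70% did not overlap between the genotypes, and of those of Pde4a 8.62%.

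**Figure D3:**
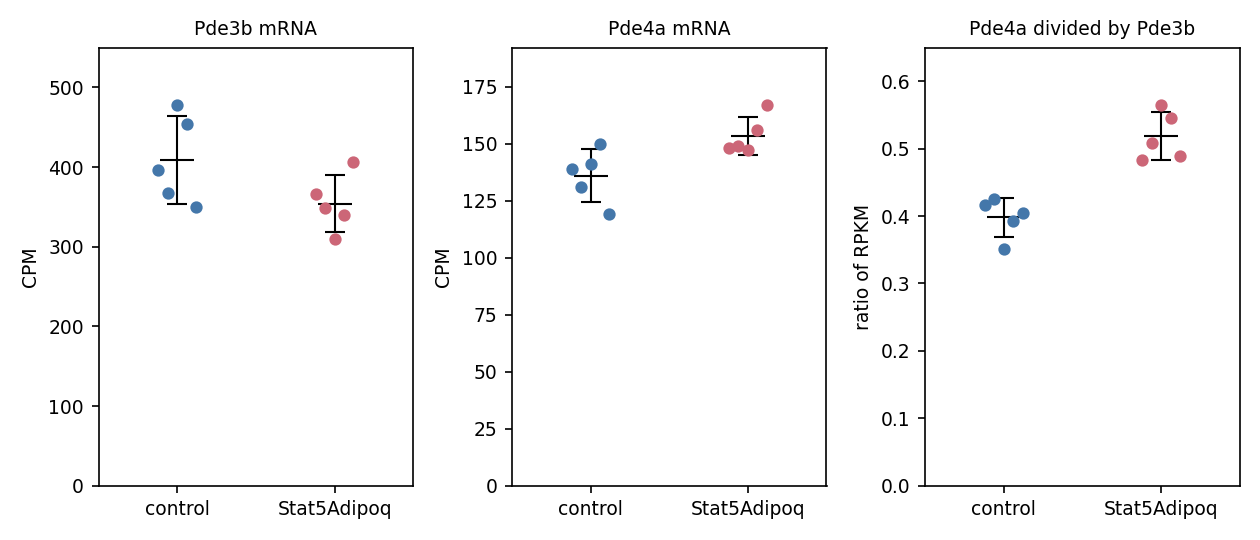
Pde3b and Pde4a mRNA in CPM and the ratio of their RPKM (vertical axes, all from 0) in 5 control (blue) and 5 Stat5Adipoq (red) libraries, with bars for the mean ± SD. The ratio was 0.351 to 0.425 in control and 0.483 to 0.565 in Stat5Adipoq libraries, while each gene alone overlapped between the genotypes.

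Pde4d and Pde4b varied most between mice. Pde4d is the longest of the 10 genes, on chromosome 13 from 108654177 to 109955969 on the plus strand, and it was 369, 209, 264, 372 and 239 CPM in control replicates 1 to 5. In Stat5Adipoq replicates 1 to 5 it was 192, 313, 243, 330 and 218 CPM. High and low libraries occurred in both genotypes, with control replicates 1 and 4 and Stat5Adipoq replicates 2 and 4 at 313 CPM or above and all others at 264 CPM or below. For Pde4d the log2 fold change was -0.17 (limits -0.57 and 0.24, edgeR adjusted p = 0.75). Its standard deviation within genotypes, 0.36 on the log2 scale, was larger than that of 95.9% of the 854 tested genes whose mean CPM was within a factor of 2 of its own, for which the median was 0.11. The limits therefore leave room for a fold between 0.67 and 1.18. With 1 library left out the log2 fold change of Pde4d ranged from -0.27 without Stat5Adipoq replicate 4 to -0.06 without control replicate 4, and it was -0.07 without control replicate 1.

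Pde4b, which is known for its induction in monocytes and macrophages, lies on chromosome 4 from 102087332 to 102607275 on the plus strand. It was 19.8, 14.1, 12.6, 18.8 and 22.3 CPM in control replicates 1 to 5 and 13.2, 17.8, 16.5, 21.0 and 10.6 CPM in Stat5Adipoq replicates 1 to 5. Among the Stat5Adipoq libraries, replicates 4 and 2 were highest and replicates 1 and 5 lowest in both Pde4b and Pde4d, while among the controls replicate 5 was highest in Pde4b and low in Pde4d. The log2 fold change of Pde4b was -0.16 (limits -0.57 and 0.26, edgeR adjusted p = 0.78), and its standard deviation within genotypes was 0.35 on the log2 scale, above that of 94.7% of genes of similar level. With 1 library left out the fold change ranged from -0.27 without Stat5Adipoq replicate 4 to -0.04 without Stat5Adipoq replicate 5, and leaving out control replicate 3 gave -0.25 and leaving out control replicate 5 gave -0.06. The summed level of 10 macrophage markers was 159 to 215 CPM in control and 136 to 175 CPM in Stat5Adipoq BAT, highest in control replicate 4. That of 10 lymphocyte markers was 6.49 to 10.9 CPM and 4.79 to 8.21 CPM. Their part in the level of Pde4b was not tested.

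The PDE7 and PDE8 enzymes have a high affinity for cAMP, and PDE8 is little affected by the general inhibitor IBMX. Pde8a, on chromosome 7 from 81213265 to 81334535 on the plus strand, was the steadiest of the 10 genes. It was 105, 96.8, 90.2, 107 and 98.5 CPM in control replicates 1 to 5 and 95.7, 105, 95, 96.3 and 105 CPM in Stat5Adipoq replicates 1 to 5. The means of 99.5 ± 6.73 CPM and 99.4 ± 5.15 CPM (SD, n = 5) were nearly equal, and the limits of the log2 fold change, -0.13 and 0.13, correspond to folds of 0.91 and 1.09 (edgeR adjusted p = 0.99). This was the narrowest interval of the 10 genes.

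Pde8b, on chromosome 13 from 95024105 to 95250401 on the minus strand, was low, with 20 to 48 counts per library, and 7.60% of its exon bases overlap exons annotated on the other strand. It was 2.39, 2.18, 3.49, 2.43 and 2.38 CPM in control replicates 1 to 5 and 1.68, 2.24, 2.12, 2.64 and 1.84 CPM in Stat5Adipoq replicates 1 to 5. Control replicate 3 was the highest and Stat5Adipoq replicate 4 the next. Its log2 fold change of -0.28 was the lowest of the 10, (limits -0.70 and 0.13, edgeR adjusted p = 0.55), and it was -0.16 without control replicate 3. At this depth the limits leave room for a fold between 0.62 and 1.10, which includes no difference.

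Pde7a, which is prominent in T cells, lies on chromosome 3 from 19223108 to 19311322 on the minus strand. It was 13.1, 11.5, 8.90, 12.4 and 11.4 CPM in control replicates 1 to 5 and 11.2, 12.3, 11.9, 11.8 and 9.75 CPM in Stat5Adipoq replicates 1 to 5, and the lowest library was a control. Its log2 fold change was -0.02 (limits -0.26 and 0.22, edgeR adjusted p = 0.97), and it was -0.09 without control replicate 3, the library with the lowest Pde7a.

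PDE1 enzymes are activated by calcium and calmodulin and, like PDE10A, cleave both cAMP and cGMP. PDE10A is best known from medium spiny neurons of the striatum. Pde1a, on chromosome 2 from 79834453 to 80196522 on the minus strand, was 38.2, 37.8, 33.1, 33.6 and 38.5 CPM in control replicates 1 to 5 and 38.8, 37.2, 29.7, 29.6 and 34.5 CPM in Stat5Adipoq replicates 1 to 5. The highest library of all was Stat5Adipoq replicate 1 and the lowest Stat5Adipoq replicate 4, and the log2 fold change was -0.09 (limits -0.28 and 0.10, edgeR adjusted p = 0.71). Pde10a, on chromosome 17 from 8525187 to 8986648 on the plus strand, had 50 to 120 counts per library. It was 7.09, 6.81, 6.37, 6.07 and 8.04 CPM in control replicates 1 to 5 and 5.70, 6.22, 6.09, 5.51 and 8.39 CPM in Stat5Adipoq replicates 1 to 5. Replicate 5 was the highest of each genotype. For Pde10a the log2 fold change was -0.10 (limits -0.40 and 0.20, edgeR adjusted p = 0.80), and it was -0.22 without Stat5Adipoq replicate 5.

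STAT5 binds a palindrome that reads TTCNNNGAA on both strands, where N is any base. RefSeq promoter windows of GRCm38.p6, each 250 bases before to 50 bases after an annotated start, were at hand for 7 of the 10 genes, as 20 windows. Pde3a, Pde3b and Pde7a were not among them. The letters of the palindrome were found in 4 of the 20 windows, where 8.30% of all 32851 windows hold them. Of the 4, 3 are overlapping windows of Pde8b that share 1 match. The other is 1 of the 4 windows of Pde4b, at an annotated start that lies far inside the gene. The cAMP response element TGACGTCA, through which CREB acts, was in none of the 20 windows and in 1.79% of all windows, and its first letters TGACG, searched on both strands, were in 5 of the 20 and in 20.8% of all windows. A match is a description of the letters, and no binding was measured here. The 250 bases before the start are printed 5′ to 3′ in the sense of the gene, for the Pde4b and Pde8b windows with the palindrome in capitals, because STAT5 is the factor deleted, and for Pde8a, the gene with the narrowest interval, with TGACG in capitals.
Pde4b, GRCm38.p6, chr4:102569810-102570059, plus strand, palindrome 150 to 142 bases before the start: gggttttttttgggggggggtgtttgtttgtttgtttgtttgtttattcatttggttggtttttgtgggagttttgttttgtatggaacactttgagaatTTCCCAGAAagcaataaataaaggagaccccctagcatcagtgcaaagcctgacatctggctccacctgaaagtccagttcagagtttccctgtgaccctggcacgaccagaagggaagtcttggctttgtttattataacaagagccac
Pde8b, GRCm38.p6, chr13:95250337-95250586, minus strand, palindrome 125 to 117 bases before the start: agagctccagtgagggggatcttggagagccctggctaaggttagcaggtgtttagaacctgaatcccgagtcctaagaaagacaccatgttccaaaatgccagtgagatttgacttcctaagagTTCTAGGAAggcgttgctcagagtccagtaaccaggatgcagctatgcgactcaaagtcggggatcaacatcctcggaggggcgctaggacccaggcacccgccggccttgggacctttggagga
Pde8a, GRCm38.p6, chr7:81213015-81213264, plus strand, TGACG 84 to 80 bases before the start: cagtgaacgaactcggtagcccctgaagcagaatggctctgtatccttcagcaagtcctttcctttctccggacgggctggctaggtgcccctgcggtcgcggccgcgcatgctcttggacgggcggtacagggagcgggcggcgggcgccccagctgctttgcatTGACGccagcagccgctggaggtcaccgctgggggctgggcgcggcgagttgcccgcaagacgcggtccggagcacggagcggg
Pde4b and Pde8b, the genes with at least 1 window that holds the palindrome, had log2 fold changes of -0.16 and -0.28, and neither passed the test. These fold changes are of whole genes and do not tell transcripts from different starts apart. Pde4a, the gene with the highest fold change, has 3 windows without it.

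Of the 6 other genes for enzymes that hydrolyse cAMP, 5 were tested and none passed the threshold, with log2 fold changes between -0.27 and 0.74 and a median of -0.05. The highest in CPM was Pde2a, a cGMP-stimulated enzyme, at 96.0 ± 10.4 CPM in control and 93.7 ± 7.72 CPM in Stat5Adipoq BAT (SD, n = 5). Per length it stood at 15.2 ± 1.64 RPKM in control BAT, between Pde4a and Pde1a. Its log2 fold change was -0.04 with limits of -0.21 and 0.14. Of 8 genes for cGMP-specific enzymes and their subunits 4 were tested and none passed. The highest of these in CPM was Pde6d, which encodes a prenyl-binding protein rather than a catalytic subunit. Its log2 fold change was 0.22 (edgeR adjusted p = 0.17). Its libraries did not overlap between the genotypes, as for 4.39% of all tested genes, 2.35% with higher libraries in Stat5Adipoq BAT.

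The lists of genes around the phosphodiesterases held 4 calls by edgeR, all of them lower in Stat5Adipoq BAT. Among 18 tested genes for receptors, G proteins and adenylyl cyclases, which control how much cAMP is made, 2 were lower and none higher. The median log2 fold change was -0.12, over a list that also holds inhibitory G protein subunits, so its genes do not all act in the same direction on cAMP. The 2 lower genes were Gnai1, an inhibitory G protein subunit, with a log2 fold change of -1.21 (SE 0.10, edgeR adjusted p = 7.5e-05), and Adcy5, an adenylyl cyclase, with -1.31 (SE 0.22, edgeR adjusted p = 0.0093). The limits of Gnai1, -1.44 and -0.99, and of Adcy5, -1.79 and -0.82, lay below those of all 10 phosphodiesterases, whose lowest limit was -0.70. Of 8 PKA subunits and exchange factors that sense cAMP 1 was lower and none higher, with a median of -0.16. It was Prkaca, a catalytic subunit of PKA, with a log2 fold change of -0.23 (SE 0.05, edgeR adjusted p = 0.043), which is within the range of fold changes of the 10 phosphodiesterases. Prkaca libraries did not overlap, at 455 to 510 CPM in control and 377 to 422 CPM in Stat5Adipoq BAT, as for 4.39% of all tested genes. DESeq2's Wald test gave Prkaca an adjusted p of 0.0013. It was called in 5 of the 17 alternative fits and, among them, in none of the 10 that left out 1 library.

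Of 14 genes for insulin signalling to PDE3B and for its partners 1 was lower and none higher, with a median of -0.12. It was Pik3r1, the regulatory subunit of phosphoinositide 3-kinase, with a log2 fold change of -1.09 (SE 0.19, edgeR adjusted p = 0.011). Gnai1, Adcy5 and Pik3r1 were called in all 17 alternative fits. DESeq2 called 1 more gene lower among those for PDE3B regulation, Pik3cb of insulin signalling. Its log2 fold change was -0.30 (edgeR adjusted p = 0.067, DESeq2 adjusted p = 0.024). Among the genes that control how much cAMP is made, DESeq2 called 1 gene higher. The gene called higher was Gnas, the stimulatory G protein subunit, with a log2 fold change of 0.32 (edgeR adjusted p = 0.053, DESeq2 adjusted p = 0.005). Libraries of Pik3cb and of Gnas did not overlap between the genotypes, as for 4.39% of all tested genes. None of the 9 genes for PDE4 partners passed, with a median of 0.03, and the highest of them in CPM, Akap1, which anchors PKA at mitochondria, had a log2 fold change of 0.02. None of 10 cAMP-responsive transcripts passed, with a median of -0.44 and a range of -1.36 to 0.38. Of these transcripts 7 had a log2 fold change below 0 and 3 above, where 50.8% of all tested genes were below 0. The highest of them in CPM was Ucp1, the uncoupling protein of BAT, at 9000 ± 3180 CPM in control and 10600 ± 2380 CPM in Stat5Adipoq BAT (SD, n = 5). Ucp1 was among the 3 above 0, with a log2 fold change of 0.24 (edgeR adjusted p = 0.69).

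**Figure D4:**
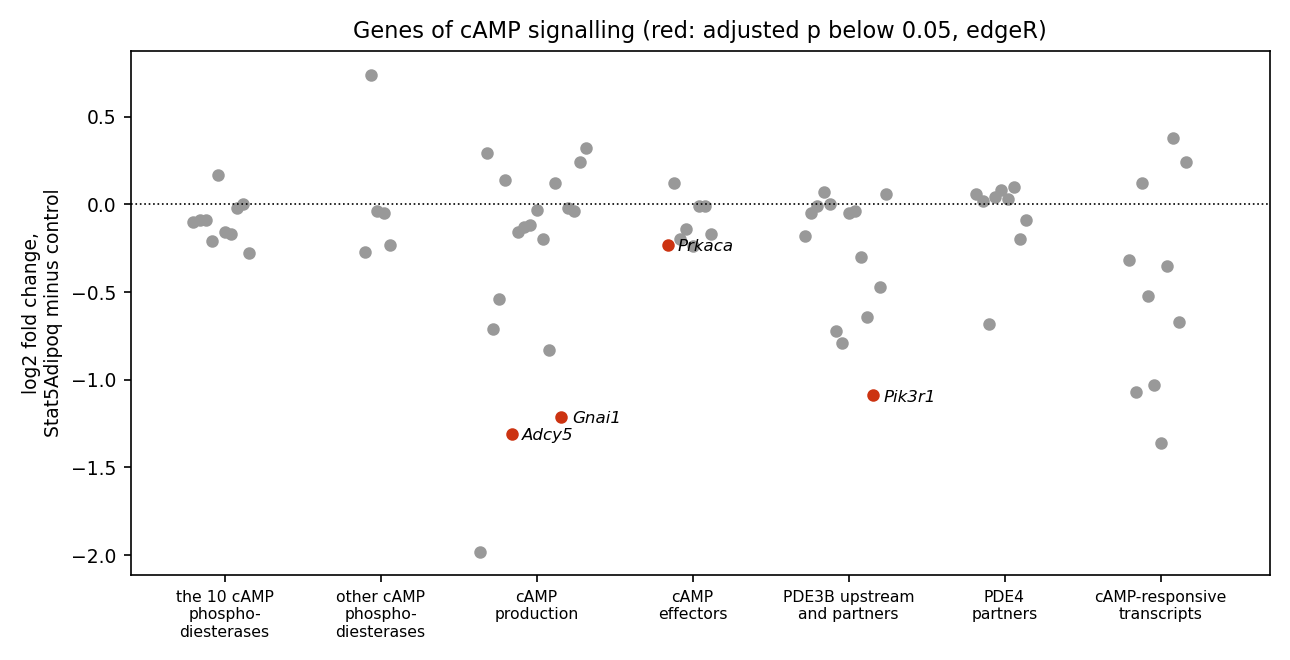
Log2 fold change (vertical axis, Stat5Adipoq minus control) of each tested gene in 7 lists of cAMP signalling, with genes past an adjusted p of 0.05 by edgeR in red. The 10 cAMP phosphodiesterases lie between -0.28 and 0.17 with none in red, and the red points are Gnai1, Adcy5, Prkaca and Pik3r1.

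None of the 10 genes was called in any of the 17 alternative fits, which changed the test, the scaling, the filter or the replicate block or left out 1 library each. Leaving out 1 library also lowers the power to call a gene, so the absence of calls in those fits adds little. The lowest adjusted p of a gene in them was 0.15, for Pde4a, and the fold changes moved more with the library left out than with the other settings.

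**Figure D5:**
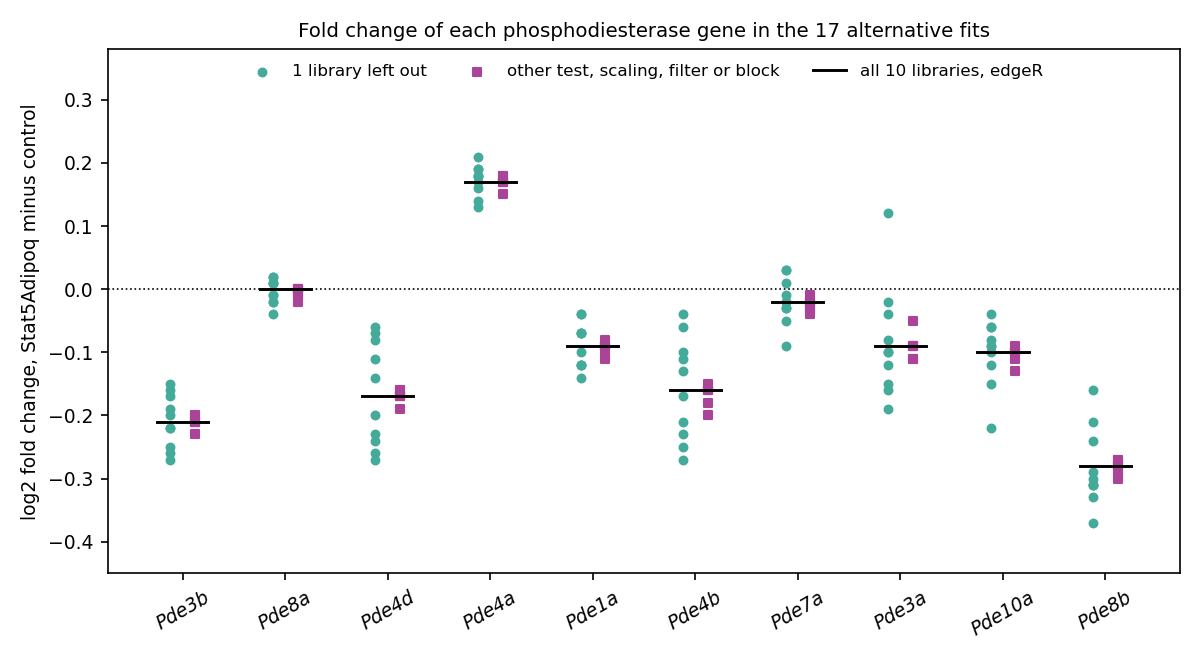
Log2 fold change of each of the 10 genes (vertical axis, Stat5Adipoq minus control) with all libraries (black line), with 1 library left out in turn (green, 10 fits) and under 7 other settings (purple). Pde4a stays above 0 in all of them and Pde3b, Pde4d, Pde1a, Pde4b, Pde10a and Pde8b stay below 0, while points of Pde8a, Pde7a and Pde3a lie on both sides.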

How the data were processed

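BAT RNA of 10 mice was sequenced with single reads from stranded mRNA libraries. The authors aligned the reads to GRCm38 with STAR 2.5.0b, assigned them to exons with featureCounts 1.5.0-p1 and deposited raw counts per gene, which are the values used here. The strand setting of this step is not given in the sources used here. A deposited DESeq2 table of fold changes and p-values served only to pair gene symbols with Entrez identifiers, and its subsets were not used.

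Genes were kept where the row sum of counts divided by size factors was above 45, which gave the same genes as that table. Genotypes were compared with edgeR 4.0.16 (glmQLFit and glmQLFTest, TMM, no covariate) in R 4.3.3, with Benjamini-Hochberg adjustment over all kept genes and a threshold of 0.05, after testing on simulated counts. For each of the 10 genes the log2 CPM (prior count 2) was in addition tested by exact permutation, on both sides. RPKM used the union of GENCODE exons of GRCm38. DESeq2 1.42.0 and limma 3.58.1 were alternatives. The genes and lists were chosen with earlier results of these data known. Named were the 10 genes, the targeted genes, and from each list other than the markers the called genes or else the one with the highest mean CPM. Any other gene or ratio was picked with its values in view. Nothing says that same-numbered mice of the genotypes were related. No pair of libraries of 1 genotype agreed within sampling noise.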

Additional observations from a re-analysis of the deposited data

Results flagged for a closer look

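In 24 groups of 5 libraries (the 10 phosphodiesterase genes, Stat5a and Stat5b in each genotype), 4 had a library whose gap to the others was large for the range of the group, where chance gives about 1.2. Control replicate 4 had 24.1 CPM of Pde3a, where the remaining controls had 12.9 to 15.7 CPM. Control replicate 3 had 3.49 CPM of Pde8b, from 29 counts, where the remaining controls had 2.18 to 2.43 CPM. Pde10a was 8.39 CPM in Stat5Adipoq replicate 5, against 5.51 to 6.22 CPM in the others of its genotype. Stat5a was 20.7 CPM in Stat5Adipoq replicate 1, against 15.8 to 16.6 CPM in the others of its genotype.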

How the results depend on the processing

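None of the 10 phosphodiesterase genes was called under any of the 17 alternatives, and of the 170 fold changes these gave, 161 kept the direction of the main fit. The other 9 lay within 0.12 of 0 and came from fits without 1 library. Pde3a was 0.12 without control replicate 4. Pde7a was 0.03 without control replicate 1 or Stat5Adipoq replicate 5 and 0.01 without control replicate 4. Pde8a was 0.02 without control replicate 1 or 4 and 0.01 without Stat5Adipoq replicate 1, 3 or 4. With 1 library left out in turn, Pde3a ranged from -0.19 to 0.12, Pde7a from -0.09 to 0.03, Pde8a from -0.04 to 0.02, Pde1a from -0.14 to -0.04, Pde3b from -0.27 to -0.15, Pde4a from 0.13 to 0.21, Pde4b from -0.27 to -0.04, Pde4d from -0.27 to -0.06, Pde8b from -0.37 to -0.16 and Pde10a from -0.22 to -0.04. The number of genes called among all tested genes was 368 with edgeR and 660 with DESeq2, and with 1 library left out it was 185 to 443. With the replicate number as a block, 273 genes were called, none of them among the 10. The correlation of deviations of same-numbered libraries was -0.24 to 0.17, and replicate 4 was the 1 number of 5 whose libraries correlated best with each other. The order of Pde3b, Pde8a, Pde4d and Pde4a per length depended on the length used. Depth limits Pde8b most, with 20 to 48 counts per library, and the spread between mice limits Pde4d and Pde4b.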
